A study of Mus musculus with 32 samples.

Results

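The agrin, MuSK and rapsyn pathway was followed through 8 genes, Agrn, Lrp4, Musk, Dok7, Rapsn, Dnaja3, Crk and Crkl, among the 24952 genes of the deposited tables. They were found by gene name. The RNA came from the tibialis anterior (TA) muscle of male wild-type C57BL/6JRj mice, kept singly and given the AIN93M diet, for longer in the 30-month than in the 10-month group. Laser capture had separated regions that bind α-bungarotoxin, a toxin that sticks to acetylcholine receptors (NMJ regions), from regions of the TA muscle away from the synapse (xNMJ regions). The 32 libraries fell into 4 groups of 8, by age (10m or 30m) and region (NMJ or xNMJ), and each pooled many captured regions. The sources used here do not say whether every library came from its own animal, so p-values measure the spread between these samples, which may in part be technical.

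Agrin is a heparan sulphate proteoglycan that the motor nerve secretes into the synaptic cleft. It binds LRP4 on the muscle fiber, and LRP4 in turn activates the receptor tyrosine kinase MuSK. MuSK acts with the adaptor Dok-7 and, through it, with Crk and CrkL, while the co-chaperone Tid1 (gene Dnaja3) binds the inner part of MuSK, and rapsyn anchors the acetylcholine receptors (AChR) that gather beneath the nerve ending. Loss of agrin, LRP4, MuSK, Dok-7 or rapsyn prevents normal synapse formation in mice.

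The genes lie on 5 chromosomes of the mouse genome build GRCm38, with Musk on chromosome 4 from 58285960 to 58374303 (plus strand) and Dnaja3 on chromosome 16 from 4639989 to 4707695 (plus strand). Because these 2 members differed between regions and have an entry in the RefSeq promoter table, their sequences around the start site are shown, from 200 bases before the start to the first 4 transcribed bases, on the plus strand of GRCm38. The windows are chr4:58285762-58285965 for Musk and chr16:4683870-4684073 for Dnaja3. The RefSeq start of Dnaja3 lies inside the gene bounds given above, not at their first base. Capitals mark an N-box (CCGGAA, a motif known from synaptic AChR promoters, searched on both strands) or an E-box (CANNTG, which reads the same on both strands and is bound by myogenic factors), and no match overlapped another.
Musk: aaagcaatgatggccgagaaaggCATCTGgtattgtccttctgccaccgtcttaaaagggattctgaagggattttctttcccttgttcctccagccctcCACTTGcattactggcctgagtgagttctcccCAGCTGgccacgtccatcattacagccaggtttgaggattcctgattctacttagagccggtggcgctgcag
Dnaja3: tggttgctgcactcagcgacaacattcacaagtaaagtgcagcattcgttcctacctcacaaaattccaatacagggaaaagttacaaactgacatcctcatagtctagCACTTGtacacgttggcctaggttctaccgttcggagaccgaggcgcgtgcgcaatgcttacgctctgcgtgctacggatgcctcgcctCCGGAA
Over the full windows of 250 bases before to 50 after the start, Musk held 3 E-boxes, which begin 177, 100 and 68 bases before the start, and no N-box. Dnaja3 held 1 E-box, 91 bases before the start, and 1 N-box that begins 2 bases before it. Such matches are common, as 72.3% of all 32851 RefSeq windows held an E-box and 14.9% an N-box.

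All 8 genes were among the 13990 that passed the filter of at least 1 CPM (a count scaled to the size of its library) in at least 8 libraries. Library totals ranged from 4026648 to 16516788 counts, with medians at 10 months of 6062117 (xNMJ) and 9605869 (NMJ) and at 30 months of 6790011 (xNMJ) and 9825357 (NMJ). A floor of 3 counts therefore lay between 0.182 and 0.745 CPM before the scaling described next. It covers counting error only, since reads that carry no molecular identifier may be copies of 1 molecule. CPM values here are scaled by TMM factors, which allow for reads taken up by a few genes. With that scaling the floor can lie higher, as 3 counts of Dok7 in 10m xNMJ replicate 1 were 0.931 CPM. TPM (also scaled for transcript length) is used where different genes are set side by side.

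Markers of the synapse separated the regions as labelled, with 1 library between them. Summed over 7 synaptic genes (Chrne, Chrna1, Chrnd, Etv5, Colq, Ache and Prkar1a), the level had a median of 66.7 CPM in xNMJ against 3600 CPM in NMJ libraries at 10 months, and of 61.0 against 3410 CPM at 30 months. In 10m xNMJ replicate 7 it was 160.5 CPM, where the other 10m xNMJ libraries had 55.35 to 71.08 CPM. In 30m xNMJ replicate 5 this sum was 861 CPM, far above the other xNMJ libraries of that age, and the library also lay next to the NMJ libraries on the first principal component (21.7, with 30.9 or more in NMJ libraries and -38.5 or less in the other xNMJ libraries). 10m NMJ replicate 8 had an average insert size of 52 bases, the shortest of the 32 libraries. The counts of called members were therefore also computed without 30m xNMJ replicate 5 and 10m NMJ replicate 8. Insert size also differed between regions, at 10 months with 79 to 108 bases in xNMJ and 109 to 131 bases in the other NMJ libraries. At 30 months it was 79 to 109 bases in xNMJ libraries, apart from 130 bases in replicate 5, and 101 to 129 bases in NMJ libraries.

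RNA of other cells in the captured regions differed too. The summed level of 7 Schwann cell genes had medians of 19.6 CPM in xNMJ and 301 CPM in NMJ libraries at 10 months and of 19.6 and 246 CPM at 30 months, and all 6 of these genes that were tested rose in NMJ regions at both ages. Pmp22, a myelin gene, was the most abundant of them in NMJ regions, and Gfap was at 0 in every 10m xNMJ library. S100b, Sox10 and Kcna1 averaged below 1 CPM in xNMJ regions, so they passed the filter mainly through NMJ libraries. Here and for the marker lists below, rose and fell mean an edgeR adjusted p under 0.05 in the test described further on. Of all genes tested, 6.5% rose and 5.05% fell in NMJ regions at 10 months, and 5% and 4.25% did at 30 months. Motor neuron genes were close to absent, as 5 of the list of 6 were in the tables, their sum never exceeded 8.16 CPM, Slc5a7 was at 0 in all 16 NMJ libraries, and Chat, the most abundant, averaged 0.459 CPM in 10m NMJ.

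Genes of 6 further lists were measured beside the pathway. Fibroblast genes (led by Dcn) had summed medians of 143 and 1150 CPM in xNMJ and NMJ regions at 10 months and of 161 and 1010 CPM at 30 months, and 4 of 5 rose at each age. Mast cell genes (led by Cma1 in NMJ regions) had summed medians of 0 CPM in xNMJ regions at both ages, where Cpa3 was at 0 in every library, against 29.3 and 42.2 CPM in NMJ regions at 10 and 30 months, and 4 of 4 rose at each age. With such low levels in xNMJ regions, these genes could pass the filter almost only through NMJ libraries. Their count of rises was thus largely set by the filter. Macrophage genes went from a median of 12.9 to 64.3 CPM at 10 months, where 3 of 5 rose, and from 10.8 to 60.4 CPM at 30 months, where 2 of 5 rose. These lists describe resident cells of muscle, and C1qb led the macrophage list in NMJ regions.

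Of the muscle stem cell genes, 1 of 3 tested rose at each age (summed medians of 22.9 and 86.2 CPM at 10 months, 30.2 and 60.6 CPM at 30 months). This was Sdc4, also the most abundant in NMJ regions. Cd34 did not pass, nor did Pax7 (0.47, edgeR adjusted p = 0.853 at 10 months and 0.01, edgeR adjusted p = 0.997 at 30 months). Myf5, which was not tested, averaged 1.11 CPM in xNMJ and 0.147 CPM in NMJ libraries at 10 months, and 0.606 and 0.337 CPM at 30 months. Endothelial genes, led by Cdh5 in xNMJ regions, had summed medians of 73.4 and 61.8 CPM at 10 months, where 0 of 5 changed, and of 84.3 and 42.3 CPM at 30 months, where 1 of 5 fell. Fiber genes, led by Tnnt3, had summed medians of 106000 and 68800 CPM at 10 months and of 110000 and 63000 CPM at 30 months, and 5 of 8 fell at each age. The part of any of these cell types in the results on the pathway was not tested. In such bulk samples, more cells of a type and more RNA per cell cannot be told apart.

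In NMJ against xNMJ regions, 2 of the 8 members passed an adjusted p of 0.05 at 10 months (Musk higher, Lrp4 lower) in edgeR's quasi-likelihood test with Benjamini-Hochberg adjustment over all genes, where 11.5% of all genes tested did. At 30 months 3 of 8 passed (Musk higher, Lrp4 and Dnaja3 lower), against 9.26% of all genes. Between 30 and 10 months, 0 of 8 passed in NMJ regions, where 0% of all genes did, and 0 of 8 in xNMJ regions, where 0.0429% did. For the interaction of age and region 0 of 8 passed, against 0% of all genes. Without 30m xNMJ replicate 5 and 10m NMJ replicate 8 the counts of members were also 2, 3, 0, 0 and 0. At 10 months 1 member passed (Musk) with insert size as a covariate. Without the genes that hold a long A run, where Lrp4 was not tested, 1 passed at 10 months (Musk), and Musk and Dnaja3 passed at 30 months. With the replicate number as a block, and in limma on log2(TPM + 1), Agrn passed at 10 months beside Musk and Lrp4.

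**Figure D1:**
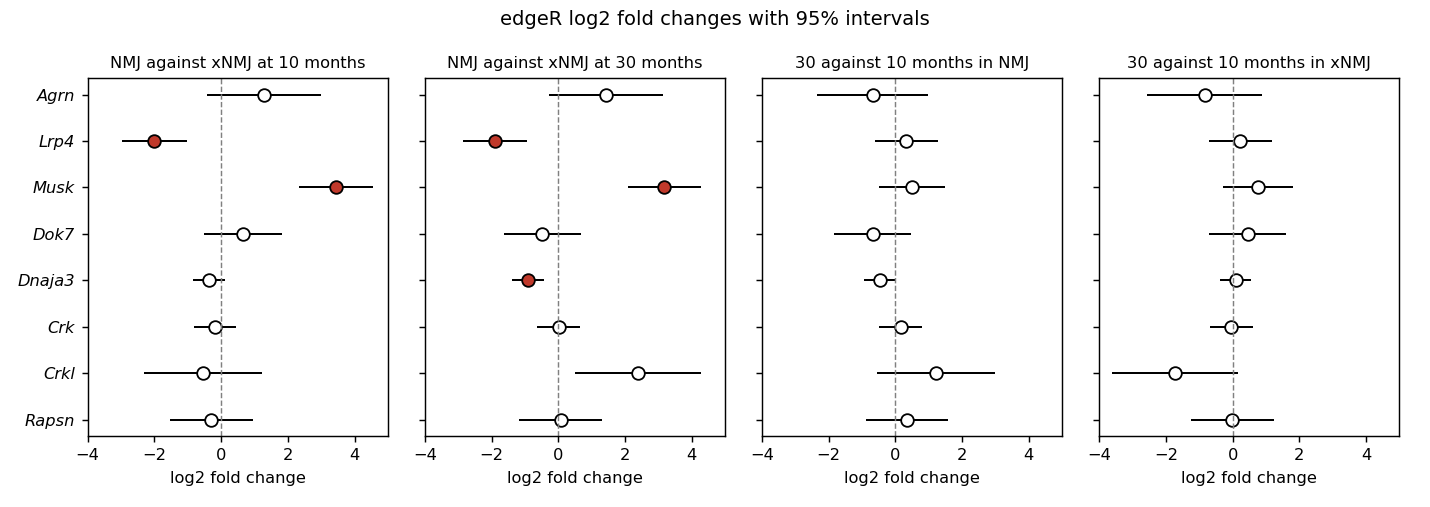
Log2 fold changes of the 8 members (circles) with their 95% intervals (lines) in 4 comparisons from the edgeR fit, with red circles for an adjusted p under 0.05. Musk lies at 3.45 and 3.17 in the region comparisons, Lrp4 lies below 0 at both ages, and no age comparison has a red circle.

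Musk was the member with the clearest synaptic pattern. It encodes the kinase that agrin and LRP4 activate. In 10m xNMJ libraries its level was between 0.924 and 10.9 CPM with a median of 2.66 CPM (4 to 49 counts), and in 10m NMJ libraries between 17.2 and 61.8 CPM with a median of 32.6 CPM (152 to 1218 counts). Every 10m NMJ library lay above every 10m xNMJ library, of which replicate 2 was the highest. Musk was 10.9-fold higher in NMJ regions (log2 fold change 3.45, SE 0.53, 95% interval 2.37 to 4.54, edgeR adjusted p = 2.06e-05, higher in 8 of 8 libraries than any xNMJ library).

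At 30 months the Musk level ranged from 0.825 to 18.8 CPM with a median of 4.56 CPM in xNMJ and from 31.3 to 83.1 CPM with a median of 44.7 CPM in NMJ libraries. The groups again did not overlap, and the highest xNMJ library was replicate 3, not the replicate 5 with high synaptic markers, which had 3.89 CPM. The difference was 9.04-fold (log2 fold change 3.17, SE 0.52, 95% interval 2.12 to 4.23, edgeR adjusted p = 7.27e-05). Of all genes tested, 2.22% at 10 months and 1.96% at 30 months had every NMJ library above every xNMJ library. The regional differences at the 2 ages were not shown to differ (interaction -0.28, 95% interval -1.67 to 1.12, unadjusted p = 0.69, edgeR adjusted p = 1).

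With age, Musk in NMJ regions had a log2 fold change of 0.48 (95% interval -0.48 to 1.44, edgeR adjusted p = 1), and 7 of the 8 30m NMJ libraries lay above the median of 10m NMJ while the ranges overlapped. In xNMJ regions the change was 0.76 (95% interval -0.27 to 1.79, edgeR adjusted p = 0.704), with broad overlap.

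**Figure D2:**
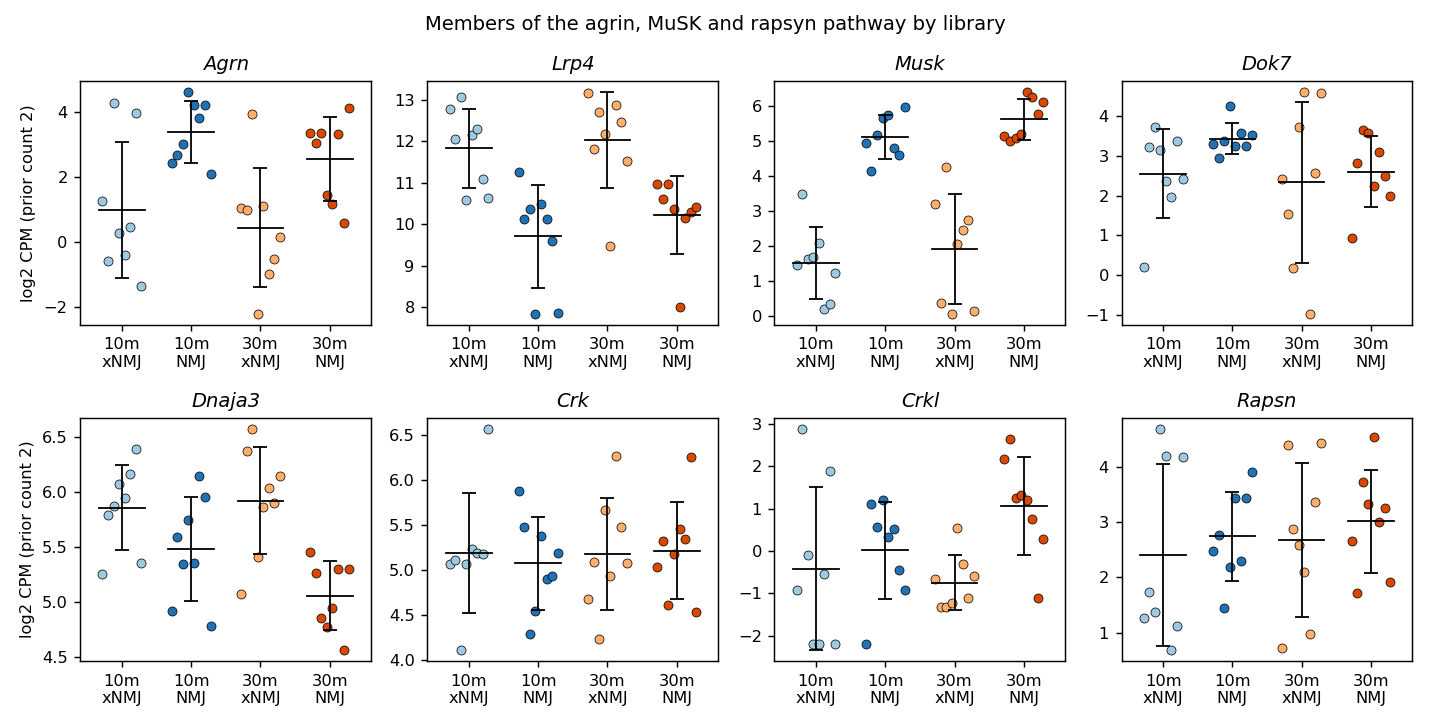
Level of each member in log2 CPM (vertical axis, prior count of 2) in the 8 libraries of each group, with circles for libraries, horizontal lines for means and bars for 1 SD. Musk in NMJ libraries lies above every xNMJ library of its age, Dnaja3 is lowest in 30m NMJ, and Agrn, Dok7 and Rapsn scatter widely in xNMJ libraries.

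Agrn (chromosome 4 from 156165290 to 156197488, minus strand) encodes agrin, the ligand. The counts cover all its splice forms, so the nerve form that activates MuSK and the forms of other cells cannot be told apart. In 10m xNMJ libraries Agrn ranged from 0.178 to 19.1 CPM with a median of 1.07 CPM (1 to 133 counts, 3 libraries at 3 counts or fewer), and in 10m NMJ libraries from 4.01 to 24.0 CPM with a median of 10.9 CPM. All 8 10m NMJ libraries exceeded the xNMJ median, but replicates 3 and 7 of 10m xNMJ (19.1 and 15.3 CPM) reached into the NMJ range. The log2 fold change of 1.28 (SE 0.82, 95% interval -0.38 to 2.95, edgeR adjusted p = 0.374) did not pass the test, and without 10m xNMJ replicate 3 it was 2.0 (edgeR adjusted p = 0.144).

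At 30 months Agrn ranged from 0 to 14.9 CPM (median 1.33 CPM) in xNMJ and from 1.28 to 17.2 CPM (median 8.91 CPM) in NMJ libraries. In xNMJ regions replicate 3 alone held 14.9 CPM, and the next highest library 1.95 CPM. The log2 fold change was 1.43 (95% interval -0.26 to 3.12, edgeR adjusted p = 0.349), and without 30m xNMJ replicate 3 it was 2.81 (edgeR adjusted p = 0.0275). Agrn passed the test on log2(TPM + 1) with limma at both ages (1.57, adjusted p = 0.0106, and 1.34, adjusted p = 0.0245), a scale on which the median of all genes was 0.41 and 0.53 higher in NMJ regions, and on counts at 10 months with the replicate number as a block (2.69, edgeR adjusted p = 0.0409). With age, the log2 fold changes were -0.69 in NMJ (95% interval -2.32 to 0.95) and -0.84 in xNMJ regions (95% interval -2.52 to 0.85), and the value in xNMJ regions was -0.12 without 10m xNMJ replicate 3 and -2.21 without 30m xNMJ replicate 3. In NMJ regions 7 of 8 30m NMJ libraries were below the 10m NMJ median.

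Lrp4 (chromosome 2 from 91457511 to 91513779, plus strand), the agrin receptor, had far higher counts than any other member, and they varied over the libraries as those of genes with a long run of A did. Its level ranged from 1541 to 8666 CPM (median 4399 CPM) in xNMJ and from 229 to 2467 CPM (median 1114 CPM) in NMJ libraries at 10 months. At 30 months it ranged from 717 to 9137 CPM (median 5174 CPM) in xNMJ and from 257 to 2006 CPM (median 1343 CPM) in NMJ libraries. At each age all 8 NMJ libraries lay below the xNMJ median, yet the ranges overlapped. Lrp4 counts were 4.01-fold lower in NMJ regions at 10 months (SE of the log2 fold change 0.46, edgeR adjusted p = 0.00288) and 3.75-fold lower at 30 months (SE 0.46, edgeR adjusted p = 0.00502).

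The Lrp4 transcript of 7926 bases in the GENCODE M21 annotation holds a run of 31 A at positions 7143 to 7173. Stretches of 31 bases of Lrp4 occur in 60 other genes, and 31 bases is the word length that kallisto compares by default. Among all genes with a run of 31 or more A (or T), 40 of 46 others that were tested had log2 CPM values within a root mean square difference of 0.1 from those of Lrp4 over the 32 libraries, after each gene was centred on its mean. Of the 13943 remaining genes tested, 14 did (0.1%). The nearest genes were Pam (0.0257), Map3k1 (0.0315) and Slx1b (0.0325), against a median of 1.71 over 8564 candidates.

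Lrp4 counts were almost a fixed multiple of Pam counts, 0.945 ± 0.0171 (SD, n = 32), with a lowest value of 0.904 and a highest of 0.993. Pam was picked as the nearest gene, so a steady ratio to it was to be found by that choice. Together the 47 genes with such a run held from 1.34% to 29.9% of the counts of a library. At 10 months their mean share was 16.6% in xNMJ and 6.34% in NMJ libraries (two-sided exact permutation test over libraries, p = 0.01, adjusted p = 0.021 over 4 tests), and at 30 months 18.6% and 8.23% (exact permutation p = 0.0089, adjusted p = 0.021). The shares were not shown to differ between ages in NMJ (exact permutation p = 0.31, adjusted p = 0.42) or in xNMJ libraries (exact permutation p = 0.66, adjusted p = 0.66). Whether reads over the run set the Lrp4 counts was not tested, since the tables hold no reads. The authors had trimmed poly(A) and poly(T) tails from the reads before kallisto was run. Reads over the run and reads elsewhere in Lrp4 cannot be told apart in these tables, and no direction is read for the receptor.

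**Figure D3:**
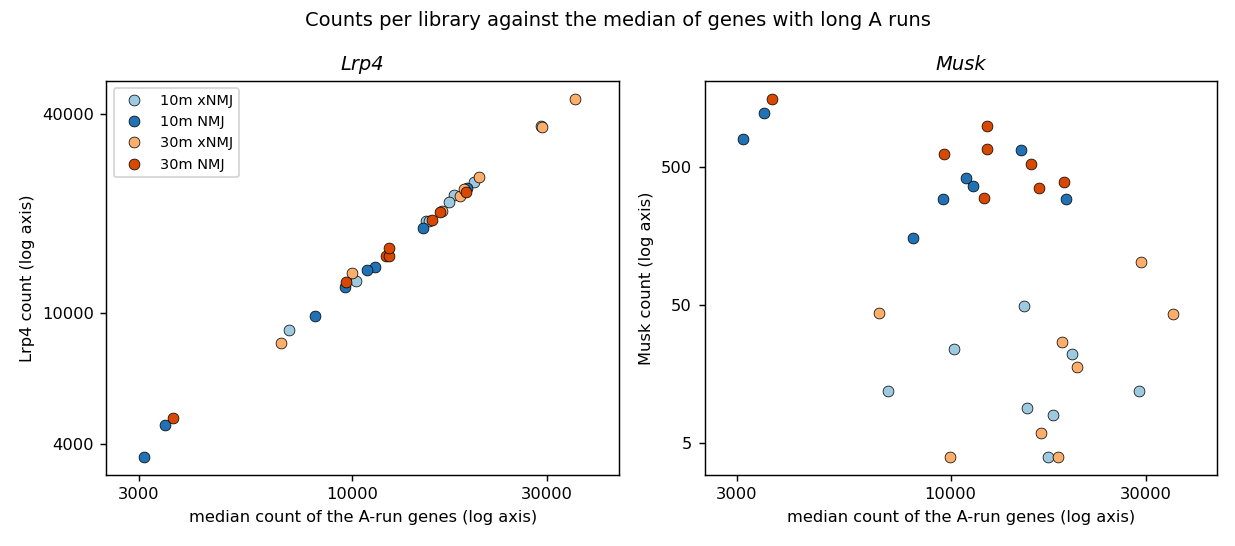
Counts of Lrp4 (left) and Musk (right) in each of the 32 libraries (vertical axes, log scale) against the median count of the 40 genes with a long A run that followed Lrp4 (horizontal axes, log scale), coloured by group. Lrp4 falls on a single line, 1.25 ± 0.0335 (SD) times that median, while Musk separates by region. The tight line follows in part from the choice of genes that followed Lrp4.

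Dok7 (chromosome 5 from 35056766 to 35087839, plus strand) encodes the adaptor that keeps MuSK active from inside the fiber. At 10 months it ranged from 0.931 to 13.0 CPM (median 6.91 CPM) in xNMJ and from 7.48 to 19.1 CPM (median 9.90 CPM) in NMJ libraries. At 30 months it ranged from 0.291 to 24.2 CPM (median 5.44 CPM) in xNMJ and from 1.69 to 12.3 CPM (median 6.13 CPM) in NMJ libraries. All 8 10m NMJ libraries lay above the 10m xNMJ median but only replicate 4 above its highest library, while at 30 months the 2 highest of all 16 libraries were xNMJ replicates 5 and 8. Replicate 5 is the xNMJ library with high synaptic markers. The log2 fold changes were 0.66 (95% interval -0.47 to 1.78, edgeR adjusted p = 0.53) and -0.48 (95% interval -1.60 to 0.65, edgeR adjusted p = 0.694). In fits without 1 library, the value at 30 months ranged from -0.66 to -0.11.

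Between ages, Dok7 had log2 fold changes of -0.69 in NMJ (95% interval -1.81 to 0.44, edgeR adjusted p = 1) and 0.45 in xNMJ regions (95% interval -0.68 to 1.58, edgeR adjusted p = 0.909), and the interaction was -1.13 (95% interval -2.73 to 0.46, unadjusted p = 0.157, edgeR adjusted p = 1). In fits without 1 library, the interaction ranged from -1.32 to -0.77. In NMJ regions, 5 of the 8 30m libraries were below the lowest 10m library. None of these differences passed the test.

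Dnaja3 encodes Tid1, a DnaJ co-chaperone of mitochondria that also binds MuSK. At 10 months it ranged from 37.9 to 83.6 CPM (median 59.9 CPM) in xNMJ and from 27.3 to 70.5 CPM (median 44.2 CPM) in NMJ libraries. At 30 months the range was 33.5 to 95.2 CPM (median 62.4 CPM) in xNMJ and 23.3 to 43.5 CPM (median 34.3 CPM) in NMJ libraries. The 30m NMJ libraries were the lowest as a group, and all 8 lay below the 30m xNMJ median, but the ranges overlapped, since xNMJ replicates 1 and 4 (33.5 and 42.3 CPM) fell among the NMJ values. At 30 months Dnaja3 was lower in NMJ regions, with a log2 fold change of -0.91 (SE 0.22, 95% interval -1.36 to -0.46, edgeR adjusted p = 0.00516). At 10 months the value was -0.36 (95% interval -0.80 to 0.09, edgeR adjusted p = 0.35).

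The regional differences in Dnaja3 at the 2 ages were not shown to differ (interaction -0.56, unadjusted p = 0.0818, edgeR adjusted p = 1). All 8 30m NMJ libraries were below the 10m NMJ median, with a log2 fold change of -0.46 between ages (unadjusted p = 0.041, edgeR adjusted p = 1). In limma on log2(TPM + 1), where the median of all genes was 0.53 at 30 months, Dnaja3 had -0.27 (adjusted p = 0.408) and did not pass, and at 10 months it had 0.07 where the median of all genes was 0.41. Dnaja3 thus lay below the median of all genes on both scales. The annotation places Coro7 on the opposite strand and Vasn within the bounds of the gene, and the libraries carry no strand, so reads in overlapping exons cannot be told apart.

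Crk (chromosome 11 from 75679259 to 75706908, plus strand) and Crkl (chromosome 16 from 17451987 to 17487434, plus strand) encode related adaptors that bind Dok-7. Crk had medians of 35.1 CPM in xNMJ and 33.3 CPM in NMJ libraries at 10 months and of 33.6 and 37.8 CPM at 30 months, within a range of 17.0 to 94.7 CPM over all libraries. The groups overlapped throughout, and the log2 fold changes between regions were -0.19 (95% interval -0.80 to 0.42) at 10 months and 0.01 (95% interval -0.60 to 0.63) at 30 months. Of its 4774 words of 31 bases, 31 occur in other genes, 251 genes in all, so that a small part of the Crk count may be shared.

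Crkl was near the limit of detection. It had medians of 0.386 CPM in 10m xNMJ (0 to 32 counts, 6 libraries at 3 counts or fewer), 1.13 CPM in 10m NMJ (0 to 33 counts), 0.325 CPM in 30m xNMJ (1 to 14 counts, 7 libraries at 3 counts or fewer) and 2.12 CPM in 30m NMJ (3 to 57 counts). At 30 months 6 of the 8 NMJ libraries lay above the highest xNMJ library, and the log2 fold change was 2.40 (SE 0.91, 95% interval 0.54 to 4.26, edgeR adjusted p = 0.101), which did not pass, although it did with only the compared groups (2.34, edgeR adjusted p = 0.0174) and in limma on log2(TPM + 1) without a filter (0.75, adjusted p = 0.014). At 10 months it was -0.54 (95% interval -2.28 to 1.20, edgeR adjusted p = 0.765), with 10m xNMJ replicate 2 (7.15 CPM) as the highest library. The interaction of 2.94 (unadjusted p = 0.0242, edgeR adjusted p = 0.872) did not pass. Without 10m xNMJ replicate 2 the value at 10 months was 0.50 (edgeR adjusted p = 0.788) and the interaction 1.904 (edgeR adjusted p = 1). Between ages in xNMJ regions Crkl had -1.72 (edgeR adjusted p = 0.574), and -0.69 without that library.

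Rapsn (chromosome 2 from 91035620 to 91045729, plus strand) encodes rapsyn, which links the receptors to the cytoskeleton. At 10 months it ranged from 1.39 to 25.5 CPM (median 2.74 CPM) in xNMJ and from 2.50 to 14.8 CPM (median 5.96 CPM) in NMJ libraries. At 30 months the range was 1.44 to 21.1 CPM (median 6.44 CPM) in xNMJ and 3.05 to 23.0 CPM (median 8.58 CPM) in NMJ libraries. The xNMJ and NMJ libraries overlapped widely, with xNMJ replicates 4, 5 and 8 above 17 CPM at 10 months and replicates 2 and 8 above 20 CPM at 30 months. The log2 fold changes between regions were -0.29 (95% interval -1.50 to 0.92, edgeR adjusted p = 0.825) at 10 months and 0.07 (95% interval -1.14 to 1.28, edgeR adjusted p = 0.965) at 30 months. With intervals this wide, these libraries do not settle whether Rapsn mRNA differed between regions. An antisense transcript, Gm13778, overlaps the gene, and reads of the 2 strands cannot be told apart.

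Set side by side in TPM, Dnaja3 stood highest and Crkl lowest of the members other than Lrp4 by median in each of the 4 groups. In 10m NMJ the median level was 25.7 TPM for Dnaja3, 20.1 TPM for Crk, 16.1 TPM for Musk, 5.72 TPM for Rapsn, 5.47 TPM for Dok7, 5.01 TPM for Agrn and 0.442 TPM for Crkl. The ranges over libraries of neighbours in this order overlapped except for Agrn and Crkl. In 30m NMJ the medians were 20.8 TPM for Dnaja3, 20.4 TPM for Musk, 19.7 TPM for Crk, 8.02 TPM for Rapsn, 4.10 TPM for Agrn, 3.58 TPM for Dok7 and 0.791 TPM for Crkl, and every neighbouring pair overlapped.

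In xNMJ regions Musk stood below Crk, Dok7 and Rapsn. The 10m xNMJ medians were 24.0 TPM for Dnaja3, 12.1 TPM for Crk, 2.47 TPM for Dok7, 1.91 TPM for Rapsn, 0.880 TPM for Musk, 0.272 TPM for Agrn and 0.119 TPM for Crkl. Crk and Dok7 did not overlap there, and the other neighbouring pairs did. The 30m xNMJ medians were 27.7 TPM for Dnaja3, 12.0 TPM for Crk, 4.03 TPM for Rapsn, 2.29 TPM for Dok7, 1.37 TPM for Musk, 0.377 TPM for Agrn and 0.0881 TPM for Crkl, with overlap between all neighbouring pairs.

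The ratio of the adaptor to its kinase, Dok7 to Musk in TPM, had a median of 0.457 in 10m NMJ (0.21 to 0.545) and of 0.136 in 30m NMJ (0.0582 to 0.465), against 3.47 (0.423 to 13.1) and 2.2 (0.0527 to 35.5) in xNMJ regions at 10 and 30 months. The NMJ ranges of the 2 ages overlapped. The ratio of Rapsn to Chrna1, the α subunit of the AChR, had medians of 0.038 in 10m NMJ (0.0154 to 0.0737) and 0.0369 in 30m NMJ (0.0218 to 0.0772), and of 0.392 and 0.966 in 10m and 30m xNMJ. The ratio of Crk to Crkl had at 10 months medians of 43.0 in the 5 xNMJ and 40.8 in the 7 NMJ libraries with a Crkl value above 0, and at 30 months of 167 (xNMJ) and 26.8 (NMJ). These ratios are given as descriptions without a test.

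Patterns over the 32 libraries were compared by the root mean square difference of centred log2 CPM, over tested genes that averaged 5 CPM or more in each NMJ group. The nearest genes to Musk were Fgf6 (0.927), a fibroblast growth factor, Sipa1l1 (1.04) and Ncam1 (1.05), the neural cell adhesion molecule, against a median of 2.18 over the candidates. Fgf6 averaged 5.78 CPM in xNMJ and 99.9 CPM in NMJ libraries at 10 months and 11.2 and 79.2 CPM at 30 months. Ncam1 averaged 5.17 and 111 CPM at 10 months and 8.32 and 103 CPM at 30 months. The nearest to Agrn were Pxn (1.36), Pdia6 (1.37) and Col4a2 (1.37) against a median of 2.05. Those to Dok7 were Atp6v0d1 (0.929), Lamp2 (0.955) and Arl5a (0.988) against 1.47, and those to Rapsn were 4931406P16Rik (0.753), Gm12758 (0.849) and Ebna1bp2 (0.879) against 1.43. For scale, the SD of log2 CPM over the 32 libraries was 1.93 for Agrn, 1.27 for Dok7 and 1.20 for Rapsn. All these libraries share their preparation and depth differences.

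Around the 8 members, 51 further pathway genes in 5 lists were measured, of which 50 were in the tables and 48 were tested. In NMJ regions 12 were higher and 2 lower at 10 months, where 6.5% of all genes were higher and 5.05% lower, and 12 were higher and 1 lower at 30 months, where 5% and 4.25% were. The median log2 fold change of the 48 was 0.37 at 10 months and 0.41 at 30 months, against 0.0036 and -0.014 over all genes tested. The 12 higher genes include 4 of the 5 AChR subunit genes at each age, and Colq. NMJ regions were captured by a toxin that binds these receptors, and Chrne, Chrna1, Chrnd and Colq also served as synaptic markers. The counts and medians of the 48 are therefore not independent of how the regions were taken. In either age comparison and in the interaction 0 of 48 passed. In limma on log2(TPM + 1), 24 and 28 of 46 pathway genes passed in the region comparisons at 10 and 30 months. Of all 12935 genes in that fit, 2862 and 3496 passed, and 91.7% and 98.3% of these calls were higher in NMJ regions.

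The 5 AChR subunit genes, the cargo that the pathway gathers, had median log2 fold changes of 4.47 (10 months) and 3.94 (30 months), and 4 of 5 were higher at each age. The largest rises among the 5 pathway lists were in Chrne (9.72, SE 1.34), Chrnd (8.64, SE 0.91), Colq (6.20, SE 0.82) and Chrna1 (4.47, SE 0.43) at 10 months and in Colq (5.66, SE 0.79), Chrnd (5.15, SE 0.70), Chrne (4.51, SE 0.97) and Chrna1 (3.94, SE 0.42) at 30 months, all past the threshold. Without 30m xNMJ replicate 5 the values at 30 months were 7.49 for Colq, 6.79 for Chrnd, 12.65 for Chrne and 4.87 for Chrna1, and without 10m xNMJ replicate 7 those at 10 months were 8.16 for Colq and 10.74 for Chrne. Chrne was at 0 in 6 of the 8 10m xNMJ libraries and in 6 of the other 7 30m xNMJ libraries, so the size of its change is uncertain. The size of the Chrnd change is uncertain too, as its xNMJ medians were 0.062 CPM at 10 months and 0 CPM at 30 months. Chrne and Chrnd passed the filter mainly through NMJ libraries, so their calls are not independent of it.

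Of the extracellular ligands and matrix partners, 4 of 8 tested were higher at each age and none lower, with medians of 0.56 and 1.14. They were Colq, which anchors acetylcholinesterase, and, chosen here after their values were seen, Lamb2 (1.95 and 1.55), a chain of synaptic laminin, Bgn (1.57 and 2.01), the proteoglycan biglycan, and Dag1 (0.51 and 0.72), dystroglycan. Dag1 no longer passed at 10 months when 10m NMJ replicate 5 (edgeR adjusted p = 0.0642) or 6 (edgeR adjusted p = 0.0529) was left out, with only the groups compared (0.0626), with insert size as a covariate (0.0515) or with the replicate block (0.0739).

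Of the cytoskeleton and scaffold genes, 4 of 11 tested were higher at 10 months and 3 of 11 at 30 months, with medians of 0.72 and 0.51. Also named after their values were seen, Utrn (1.95 and 2.43), which encodes utrophin, and Macf1 (1.75 and 1.41), a linker of microtubules and actin, were higher at both ages. The chaperone Hsp90aa1 was higher as well (0.95 and 0.79), but at 30 months its call was lost in 11 of the 32 fits that left out 1 library (edgeR adjusted p up to 0.072). Hsp90ab1 was higher at 10 months (0.67, edgeR adjusted p = 0.00462).

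The genes that assemble, turn over or act with MuSK inside the fiber were not called more often than the 11.5% and 9.26% of all genes at 10 and 30 months. Of 14 tested, none was higher at either age, and 1 was lower at 10 months, namely Pdzrn3 (-0.66, SE 0.20, edgeR adjusted p = 0.0246), a ubiquitin ligase that acts on MuSK. That call was lost without 10m xNMJ replicate 4 (edgeR adjusted p = 0.0704), 10m xNMJ replicate 8 (0.0635) or 10m NMJ replicate 6 (0.0603). The list had medians of 0.0018 and 0.060, close to those of all genes. Among 10 small GTPases and Wnt-type effectors, Dvl2, a dishevelled protein that binds MuSK, was lower at both ages (-1.35, SE 0.20, edgeR adjusted p = 1.09e-05 at 10 months and -1.08, SE 0.20, edgeR adjusted p = 0.000326 at 30 months). At 30 months it did not pass in limma on log2(TPM + 1) (-0.46, adjusted p = 0.122). Rhoa was higher at 30 months (1.01, edgeR adjusted p = 0.00338), and the other genes of that list did not pass.

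**Figure D4:**
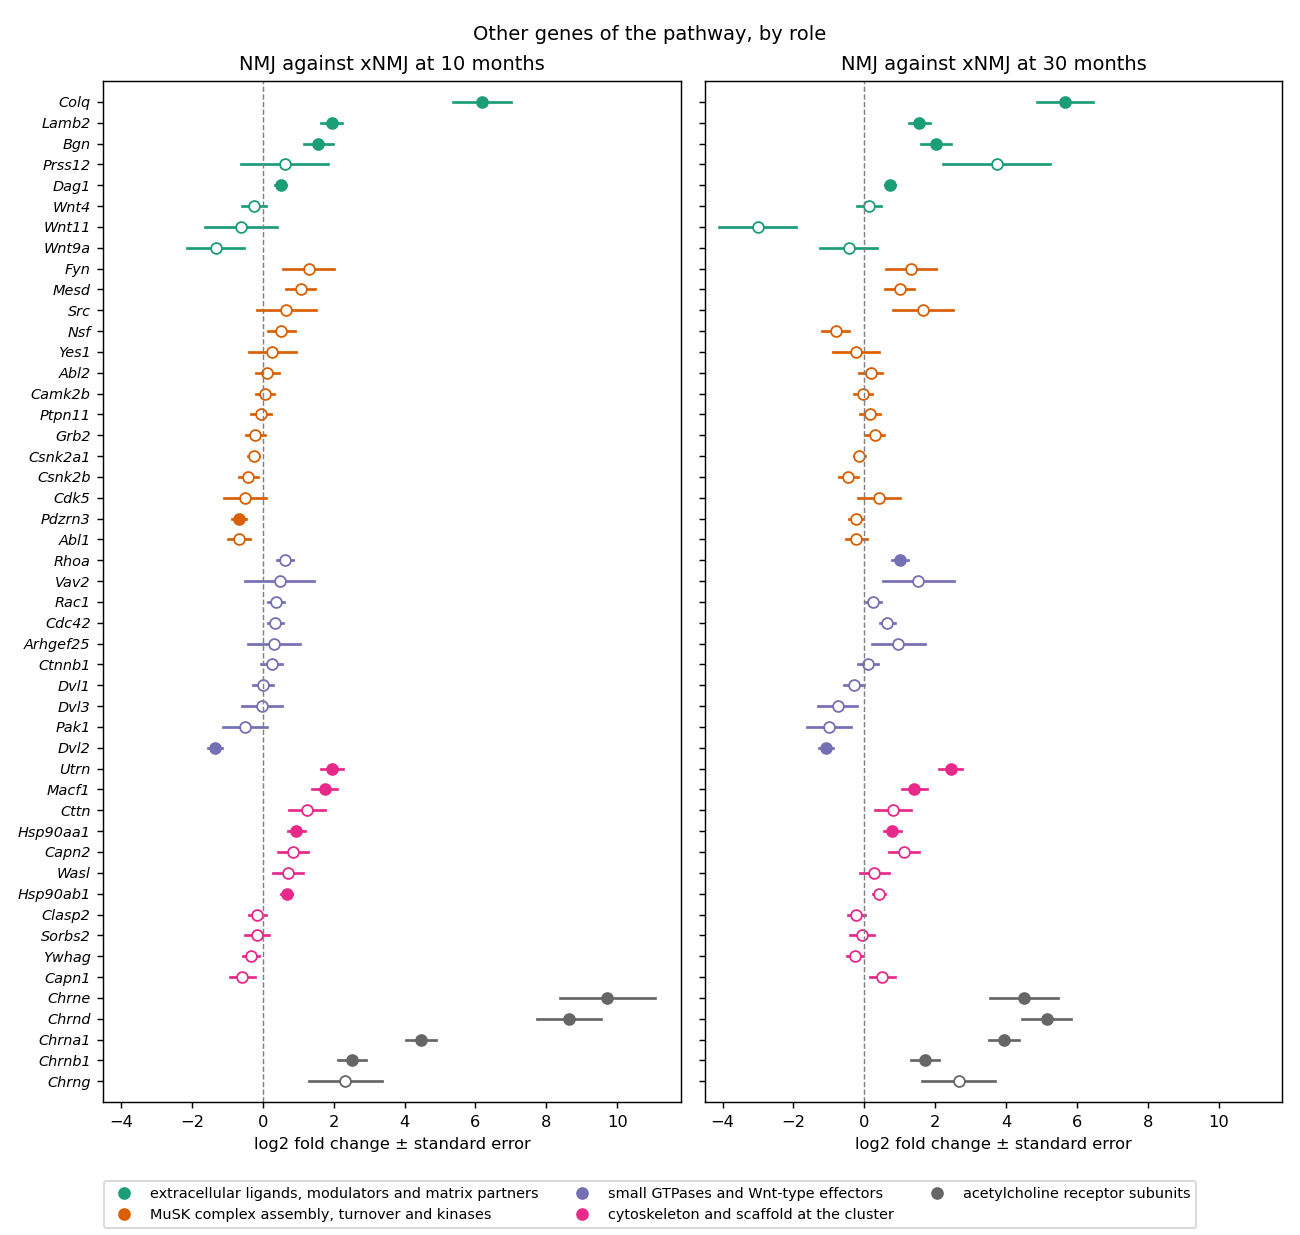
Log2 fold changes between NMJ and xNMJ regions (horizontal axes) of the 48 pathway genes tested, at 10 months (left) and 30 months (right), with lines for 1 standard error, colours for the lists and filled circles for an adjusted p under 0.05. Filled circles to the right of 0 belong to the AChR subunits, the extracellular genes, the cytoskeleton and Rhoa, and those to the left to Dvl2 and Pdzrn3.

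With age, no pathway gene passed the test in edgeR, and Chrne in xNMJ regions did in DESeq2 (5.75, adjusted p = 0.022). The smallest p-values in NMJ regions were those of Hsp90aa1 (-0.56, unadjusted p = 0.0262), Capn1 (0.61, unadjusted p = 0.0955), a calpain, and Wnt11 (-1.77, unadjusted p = 0.0969), each with an edgeR adjusted p of 1. In xNMJ regions they were those of Chrne (5.29, edgeR adjusted p = 0.118), Chrnd (3.36, edgeR adjusted p = 0.206) and Nsf (1.18, edgeR adjusted p = 0.312). The value of Chrne rested on 30m xNMJ replicate 5, which held 93.9 CPM, and without that library it was -2.85 (edgeR adjusted p = 0.364), while Chrnd was 1.71 (edgeR adjusted p = 0.524). Without 10m xNMJ replicate 7 Chrne was 6.31 (edgeR adjusted p = 0.125), and without 30m NMJ replicate 7 Wnt11 was -2.36 (edgeR adjusted p = 1).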

How the data were processed

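Sample labels placed the 32 RNA-seq libraries of captured TA regions in 4 groups of 8. From SMART-Seq v4 cDNA, the authors trimmed adapters and poly(A) or poly(T) tails from unstranded single-end reads with Cutadapt 1.9.1 and assigned them with kallisto 0.43.1 to well-supported protein-coding Ensembl transcripts of GRCm38. As described by the authors, a read on several transcripts was divided equally between them, and gene values are sums over transcripts. Counts, as deposited, are whole numbers without normalization, and the deposited TPM values are scaled by the authors for transcript length and library total.

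Counts were fitted with edgeR 4.0.16 in R 4.3.3 (TMM factors, 4 groups in one quasi-likelihood fit, at least 1 CPM in at least 8 libraries, 13990 genes). Benjamini-Hochberg adjustment of the two-sided p-values covered every tested gene within each comparison. Gene positions, shared words of 31 bases and A runs came from GENCODE M21 (24918 of 24952 identifiers found), so the transcripts used by the authors may differ in part, and promoters came from RefSeq. Lrp4 and Rapsn had no promoter entry.

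The members and lists were chosen with earlier results of these data known. Named were the 8 members, the 4 largest rises and falls past the threshold per region comparison, the 3 smallest p-values per age comparison, and the 3 nearest genes by pattern of the 5 core members. Lists of Schwann cell, motor neuron, fibroblast, mast cell, macrophage, muscle stem cell, endothelial, fiber and synaptic genes served as markers.

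Alternatives were DESeq2 1.42.0, edgeR with DESeq2 size factors, fits without the filter, with the compared groups alone, with a replicate block or with insert size as a covariate, limma 3.58.1 on log2(TPM + 1) and log2(TPM + 0.1), leaving out each library, and, chosen after seeing the data, leaving out 61 genes (those with an A run and those that follow Lrp4) or 2 doubted libraries. Over 112 pairs of libraries of a group, chi-squared per gene was at least 28.0, so none was a duplicate. The fits were tested on simulated data. Figures used matplotlib 3.10.9.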

Additional observations from a re-analysis of the deposited data

Results flagged for a closer look

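In each group of 8 libraries, the highest and the lowest log2(TPM + 1) of each member was compared with its nearest neighbour, and in 3 of 32 checks the gap exceeded the critical value of Dixon's test for 8 samples. Chance does this in about 1 of 20 groups. Agrn in 30m xNMJ replicate 3 had 2.44, while the next highest library had 0.592, and it rested on 82 counts. Lrp4 in 30m xNMJ replicate 5 had 6.33, where the next lowest library had 8.65. Lrp4 in 30m NMJ replicate 5 had 5.45, where the next lowest had 7.78. These Lrp4 values follow the share of counts on genes with a long A run, which was 3.06% in 30m xNMJ replicate 5 and 1.41% in 30m NMJ replicate 5, the lowest of their groups.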

How the results depend on the processing

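The rise of Musk in NMJ regions passed the test at both ages in all 11 alternatives and in all 32 fits without 1 library (log2 fold changes of 3.30 to 3.99 at 10 months and 3.01 to 3.75 at 30 months). The count of members called fell from 2 to 1 at 10 months with insert size as a covariate (Lrp4 -1.52, edgeR adjusted p = 0.167) and without the A-run genes, where Lrp4 was not tested, and without 1 library it was 2 at 10 months and 3 to 4 at 30 months. The count rose at 10 months with the replicate block and in limma with either pseudocount, where Agrn was called beside Musk and Lrp4. At 30 months it rose with only the compared groups, where Crkl was called as well, and without the A-run genes Musk and Dnaja3 passed. Dnaja3 at 30 months kept its call in the other alternatives and in every fit without 1 library, and lost it in the 3 limma fits on TPM (-0.27 to -0.28, adjusted p = 0.403 to 0.494). Those fits moved the median of all genes to 0.41 and 0.53 (pseudocount 1) 0.57 and 0.74 (pseudocount 0.1) or 0.097 and 0.17 (no filter) at 10 and 30 months, and the share of higher calls from 56.3% and 54.1% to 91.7% and 98.3% (pseudocount 1). They called 2862 and 3496 genes (pseudocount 1), 2895 and 3569 (pseudocount 0.1) and 3033 at 30 months (no filter), against 1615 and 1295, and 24 and 28 pathway list genes (either pseudocount) or 27 at 30 months (no filter), against 14 and 13. Agrn was called in 3 of these fits at 10 months and 2 at 30 months, and Lrp4 lost its call in 1 and 3. Dvl2 (30 months) and Pdzrn3 lost their calls in the limma fits, as did Pdzrn3 in edgeR without the filter (-0.59, adjusted p = 0.0848) and Hsp90aa1 at 30 months with insert size (0.75, edgeR adjusted p = 0.0516).

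No label says what a shared replicate number means, and the numbers were not taken as a pairing because only 5 of 16 pairs of the same number and age had a correlation of deviations over 0.1. As a hint of partial pairing from the data, the mean correlation was 0.0893 and 0.0807 for the same number at 10 and 30 months against -0.0128 and -0.011 for other numbers, and 8 of 16 correlated best with their own number. With the replicate block, Agrn was called at 10 months (2.69, edgeR adjusted p = 0.0409), and Dag1 at 10 months was not (0.48). Between ages a shared number cannot mark a shared animal, and that block was fitted with only the compared groups, which alone already took the genes called in xNMJ regions from 6 to 0, as did the fit with the block. Genes called between ages in xNMJ regions numbered 6, but 84 in DESeq2, 2 with insert size and 0 in the 3 limma fits and without both doubted libraries, and from 0 to 7 without 1 library. In NMJ regions limma called 3 genes and, unfiltered, 1, and DESeq2 called 10 genes for the interaction, where leaving out 1 library gave 0 to 1. At an unadjusted p under 0.05, edgeR had 372 genes in NMJ regions and 708 for the interaction, and DESeq2 had 529 and 854.

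Values that had not passed the test changed sign as follows. Under the replicate block, Crkl had 0.70 and Rapsn 0.39 at 10 months, Dok7 0.068 at 30 months, and Agrn -0.43 for the interaction. Under the block and only the compared groups together, Dok7 had -0.13, Crk 0.0052 and Rapsn 0.32 with age in xNMJ regions. Under limma, Dnaja3 had 0.072, 0.074 and 0.072, Crk 0.46, 0.49 and 0.46, and Rapsn 0.58, 0.80 and 0.58 at 10 months (pseudocounts 1 and 0.1, then unfiltered), and Crkl 0.065 unfiltered. In the same order Dok7 had 0.42, 0.83 and 0.42 at 30 months, Rapsn 0.19, 0.25 and 0.19 with age in xNMJ regions, Agrn -0.24, -0.33 and -0.24 and Musk 0.23, 0.18 and 0.23 for the interaction, and Dok7 -0.25 with age in xNMJ regions at pseudocount 0.1. Rapsn with age in xNMJ regions had 0.0096 in DESeq2, 0.0084 with its size factors and 0.022 with only the compared groups. Crk at 30 months had -0.039 with only the compared groups and -0.022 without A-run genes, and Lrp4 for the interaction had -0.16 with insert size. Without both doubted libraries, Crk had -0.033 and Rapsn -0.041 at 30 months, Crk 0.0016, Rapsn 0.099 and Chrne -2.84 with age in xNMJ regions, and Agrn -0.052 and Lrp4 -0.23 for the interaction.

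Without 1 library, the ranges crossed 0 at 10 months for Crk (-0.32 to 0.12), Crkl (-0.76 to 0.50) and Rapsn (-0.51 to 0.14), at 30 months for Crk (-0.19 to 0.22) and Rapsn (-0.26 to 0.38), with age in NMJ regions for Crk (-0.048 to 0.29), with age in xNMJ regions for Crk (-0.26 to 0.26), Dnaja3 (-0.017 to 0.19), Rapsn (-0.32 to 0.42) and Chrne (-2.85 to 6.31), and for the interaction for Agrn (-0.57 to 1.53), Lrp4 (-0.13 to 0.37), Musk (-0.81 to 0.29), Crk (-0.11 to 0.41) and Rapsn (-0.072 to 0.67). With a pseudocount of 0.1, the mean log2 TPM moved by more than its SD for 8 of 32 levels. Counts were lowest for Crkl, and were also low for Agrn in xNMJ regions. The cause of these changes was not tested.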
